A study of Homo sapiens with 6 samples.

Results

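The transcripts described here encode 7 ligands of the epidermal growth factor (EGF) family and 3 of their receptors. The ligands are EPGN, AREG, EREG, HBEGF, TGFA, BTC and NRG1, and the receptors are EGFR, ERBB2 and ERBB3. The 10 genes were chosen by symbol as members of this family, with earlier results of these data known, and each was found by its Entrez ID among the 23459 genes of one deposited count table. All 6 libraries come from MCF10A cells marked WT in the labels, a human breast epithelial line which is not transformed and needs EGF to grow, and whose medium held 20 ng/ml recombinant EGF with horse serum, insulin, hydrocortisone and cholera toxin. Cells had received 20 nM siRNA, a control sequence (siCtrl) in one group and siRNAs to YAP and TAZ (siYAP/TAZ) in the other, with 3 libraries in each group. YAP and TAZ (the latter encoded by WWTR1) are coactivators that drive transcription with TEAD factors and are restrained by the Hippo pathway. The time from transfection to harvest is not given in the sources used here.

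EGF-family ligands are made as membrane-bound precursors and are shed by metalloproteases, after which they act on the same cell or on its neighbours. AREG, EPGN and TGFA bind EGFR alone, EREG, HBEGF and BTC bind EGFR and ERBB4, and NRG1 binds ERBB3 and ERBB4. ERBB2 has no known ligand of its own and signals as the partner of the other receptors. In the mammary gland, amphiregulin from AREG is the EGFR ligand through which estrogen drives ductal growth, and cultured mammary epithelial cells make their own EGFR ligands.

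The design text of the series describes an experiment with forced JUN expression and not this knockdown, so the groups rest on the sample labels. For 2 libraries the sample labels disagree as well. The description, which is also the column name of the table, was used here, and under it siCtrl replicate 2 has a title that reads siYAP/TAZ and siYAP/TAZ replicate 2 has a title that reads siCtrl. The targeted transcripts went with the descriptions: YAP1 was at 57.5% and WWTR1 at 61.8% of the siCtrl mean, and for both genes each siYAP/TAZ library lay below each siCtrl library. Library totals were 3175149 to 4317286 counts, and a count of 0 would allow up to 3 counts, or 0.695 to 0.945 CPM (counts scaled to library size), for counting error only. The siCtrl replicate 2 library stood apart from its group, with a rank correlation across genes of 0.946 and 0.959 with siCtrl replicates 1 and 3, against 0.981 between those. Its rank correlation with siYAP/TAZ replicates 1, 2 and 3 was 0.958, 0.966 and 0.958. Its highest with any library was that with siYAP/TAZ replicate 2, the other library with conflicting labels. That other library had higher values with siYAP/TAZ replicates 1 and 3 (0.968 and 0.977) than with siCtrl replicate 2. All 10 mammary epithelial markers had counts in every library, while the 10 markers of fibroblasts, leukocytes, endothelium and muscle summed to 28.6 to 43.5 CPM, against 1492 to 2248 CPM for the epithelial list, and COL1A2 and COL3A1 had no counts. The epithelial sum was 1762, 2248 and 2088 CPM in siCtrl against 1492, 1687 and 1678 CPM under siYAP/TAZ, and its part in the results was not tested. In the epithelial list LAMB3 (log2 fold change -0.60, adjusted p of 0.0918) and KRT5 (-0.47, 0.131), and in the other list PECAM1 (2.10, 0.0785) and MYH11 (-0.12, 0.81), had the smallest p-values, and 0 genes of either list passed in edgeR (2 lower and 1 higher in the epithelial list and 1 higher in the other at an unadjusted p under 0.05). DESeq2 adjusted p-values were 0.0266 for LAMB3, 0.0374 for KRT5 and 0.0394 for PECAM1, and those with the replicate number as a block were 0.00962, 0.023 and 0.0245. The higher epithelial marker was TP63 (0.58, adjusted p of 0.177 in edgeR, 0.174 in DESeq2 and 0.0379 with the block). EPCAM was lower with the block (-0.53, 0.0364) but did not pass without it (-0.49, 0.292 in edgeR and 0.31 in DESeq2). Both TP63 and EPCAM were named after their values were seen. With the block 3 epithelial markers were lower and 1 higher, beside 5.44% and 4.66% of all genes. Without it 6 of the 10 were below 0.

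Of the 7 ligand genes, 4 lie in one cluster on chromosome 4 (GRCh37, the coordinates of hg19) that spans 545.5 kb. EPGN (75174187 to 75182506), EREG (75230862 to 75254466) and AREG (75310853 to 75320722) are on the plus strand, and BTC (75669969 to 75719733) is on the minus strand. The 250 bases before the start of EPGN, EREG and AREG are shown because these neighbouring genes had the lowest levels relative to control among the members. Sequences are from RefSeq and were placed on GRCh37 by exact match, all on the plus strand: chr4:75173937-75174186 for EPGN, chr4:75230612-75230861 for EREG and chr4:75310603-75310852 for AREG. Capitals mark a match to a TEAD core (CATTCC), an AP-1 core (TGANTCA) or a cyclic AMP response element (TGACGTCA), searched on both strands.
EPGN: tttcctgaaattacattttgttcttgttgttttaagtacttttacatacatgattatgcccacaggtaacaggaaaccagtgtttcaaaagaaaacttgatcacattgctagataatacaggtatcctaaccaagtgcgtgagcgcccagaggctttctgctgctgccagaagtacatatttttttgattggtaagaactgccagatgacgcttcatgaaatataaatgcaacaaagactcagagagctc
EREG: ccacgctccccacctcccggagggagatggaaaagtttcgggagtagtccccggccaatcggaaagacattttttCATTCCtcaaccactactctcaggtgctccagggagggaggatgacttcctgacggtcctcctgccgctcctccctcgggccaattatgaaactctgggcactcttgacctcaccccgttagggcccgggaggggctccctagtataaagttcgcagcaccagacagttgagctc
AREG: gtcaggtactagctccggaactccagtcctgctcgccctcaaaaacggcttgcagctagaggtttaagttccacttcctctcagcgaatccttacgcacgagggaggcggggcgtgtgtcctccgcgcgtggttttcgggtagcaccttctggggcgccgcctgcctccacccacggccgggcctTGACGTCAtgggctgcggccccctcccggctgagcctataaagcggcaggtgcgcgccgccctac
EREG held 1 TEAD core, 175 to 170 bases before its start, and AREG held 1 cyclic AMP response element, 65 to 58 bases before its start. EPGN held no match to the 3 motifs, and no matches overlapped in the sequences printed. The TEAD core was present in 11.9%, the AP-1 core in 6.6% and the cyclic AMP response element in 1.6% of 35116 windows of this length. The last motif was added after the sequences had been read. Of the 10 members, 8 had an entry in the promoter table.

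AREG has a near-identical copy in this genome build. The copy, annotated as AREGB, lies 3′ of AREG on the same strand (GRCh37 chromosome 4, 75480629 to 75490486), and exons 2 to 6 of AREG, 963 bases in all, were identical to it in every base. The AREG promoter window printed above also occurs there unchanged. AREGB has no row in the count table, so reads that were placed on the copy would be missing from the AREG value, and how reads with several equal placements were handled is not given in the sources used here. The level of AREG relative to other genes is therefore uncertain, while its comparison between groups uses the same alignment in all 6 libraries.

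AREG and EPGN were the members that fell past the threshold. Together they were 2 of 10 members lower and 0 higher (0 higher also by DESeq2, and 0 at an unadjusted p under 0.05), where 1.22% of all 12510 genes tested were lower and 0.743% higher at an adjusted p under 0.05 in edgeR's quasi-likelihood test. DESeq2 had 3 lower, where it had 2.59% of all genes lower and 1.98% higher. At an unadjusted p under 0.05 in edgeR, 4 members were lower, beside 9.27% of all genes lower and 8.4% higher. The groups did not overlap for 5 members, each lower in siYAP/TAZ, where 11.1% of the genes tested were lower and 11% higher without overlap. The median log2 fold change of the members was -0.47, beside -0.001 over all genes tested. EPGN, AREG and EREG are in a gene set of the study that is named for siYAP/TAZ and was taken here as drawn from these libraries, so it gives no independent evidence of their direction.

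AREG (Entrez 374), which encodes amphiregulin, had 1225, 669 and 1053 CPM in siCtrl replicates 1, 2 and 3 and 279, 217 and 292 CPM in siYAP/TAZ replicates 1, 2 and 3. All CPM values are scaled by TMM (trimmed mean of M-values), except the limit for counting error, which uses library totals. The siYAP/TAZ libraries lay close together and below all siCtrl libraries, of which siCtrl replicate 2 was the lowest. Means were 983 ± 285 and 263 ± 39.8 CPM (SD, n = 3), which is 26.7% of control. The log2 fold change was -1.90 (SE 0.23, 95% interval -2.42 to -1.38), at an adjusted p of 0.00879 in edgeR. It was the 21st lowest log2 fold change of the 12510 genes. AREG did not pass without siCtrl replicate 3 (-1.85, adjusted p of 0.0573) or siYAP/TAZ replicate 3 (-1.98, 0.0657), where only 0.0788% and 0.0869% of all genes were lower. Its adjusted p ranged from 1.21e-13 to 0.898 over 15 alternatives, the highest with groups by title. In bulk RNA, fewer cells that express a gene and less RNA per cell cannot be told apart.

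EPGN (Entrez 255324), which encodes epigen, a ligand of low affinity for EGFR, had 153, 133 and 145 CPM in siCtrl against 51.4, 34.7 and 31.8 CPM under siYAP/TAZ. The 3 siCtrl libraries were tight, and siCtrl replicate 2 did not stand apart for this gene. Means were 144 ± 10.1 and 39.3 ± 10.6 CPM (SD, n = 3), which left 27.3% of control. The log2 fold change was -1.86 (SE 0.19, 95% interval -2.29 to -1.44) at an adjusted p of 0.00342 in edgeR, the 24th lowest fold change of those tested. EPGN passed in 14 of 15 alternatives, the exception being groups by title (-0.63, 0.898). It passed without each single library, also where few genes did (0.49% of all genes lower when siCtrl replicate 1 was left out, 0.273% for siYAP/TAZ replicate 2).

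EREG and TGFA were lower without overlap but passed only in some fits. EREG (Entrez 2069), which encodes epiregulin, had 115, 75 and 76.1 CPM in siCtrl against 55.8, 36.4 and 30.5 CPM under siYAP/TAZ. In each group replicate 1 was the highest. Means were 88.6 ± 22.5 and 40.9 ± 13.2 CPM (SD, n = 3), 46.1% of control, with a log2 fold change of -1.11 (SE 0.25, 95% interval -1.67 to -0.55) and an adjusted p of 0.058 in edgeR. With the replicate number as a block, which compares libraries of the same number, the adjusted p was 0.000912, and with DESeq2 it was 0.00201. EREG also passed without siCtrl replicate 2 (-1.21, 0.0118) and without the low-count filter (-1.11, 0.0101). Another pass came once siYAP/TAZ replicate 1 was left out (-1.41, 0.0305, where 0.866% of all genes were lower).

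TGFA (Entrez 7039; GRCh37 chromosome 2, minus strand, 70674416 to 70781325), which encodes transforming growth factor alpha, had 128, 76.2 and 89.5 CPM in siCtrl against 67.3, 65.8 and 50.9 CPM under siYAP/TAZ. The lowest siCtrl library, replicate 2, came closest to the siYAP/TAZ libraries. Means were 97.8 ± 26.8 and 61.3 ± 9.09 CPM (SD, n = 3), 62.7% of control, with a log2 fold change of -0.67 (SE 0.21, 95% interval -1.14 to -0.21) and an adjusted p of 0.134 in edgeR. The adjusted p was 0.0223 with the replicate block, 0.0174 without siCtrl replicate 2 and 0.0728 with DESeq2. With the block, 4 members were lower (EPGN, AREG, EREG and TGFA), where 5.44% of all genes tested were lower and 4.66% higher. The same 4 were lower without siCtrl replicate 2, where 6.22% of all genes were lower and 6.08% higher, and with both conflicting libraries left out, where 4.64% were lower.

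**Figure D1:**
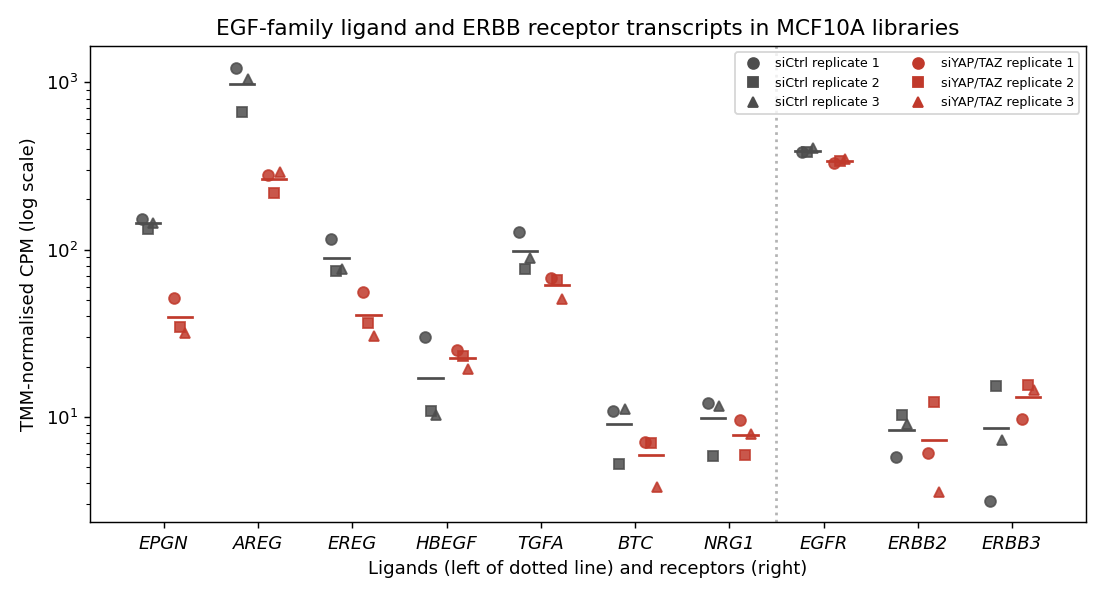
TMM-normalised CPM (log axis) of the 7 ligands and 3 receptors in each library; circles, squares and triangles are replicates 1, 2 and 3, grey is siCtrl, red is siYAP/TAZ, and bars are group means. The red points of EPGN and AREG lie well below the grey ones, those of HBEGF and of the low receptors are mixed with them, and EGFR stays between 331 and 405 CPM in all libraries.

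The other ligands did not pass in any of the fits. HBEGF (Entrez 1839; GRCh37 chromosome 5, minus strand, 139712428 to 139726188), which encodes the heparin-binding ligand, had 30.2, 10.8 and 10.3 CPM in siCtrl against 25.2, 23.1 and 19.3 CPM under siYAP/TAZ. One library, siCtrl replicate 1, made the groups overlap. The log2 fold change was 0.40 (SE 0.38, 95% interval -0.46 to 1.27) at an adjusted p of 0.635 in edgeR, and without siCtrl replicate 1 it was 1.10 with 0.0989.

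BTC and NRG1 had few counts. BTC (Entrez 685), which encodes betacellulin, had 38, 17 and 44 counts in siCtrl against 31, 21 and 14 under siYAP/TAZ, a log2 fold change of -0.62 (95% interval -1.46 to 0.22) at an adjusted p of 0.423 in edgeR. NRG1 (Entrez 3084), which encodes neuregulin 1, had 42, 19 and 46 counts in siCtrl against 42, 18 and 29 under siYAP/TAZ. Its log2 fold change was -0.33 (95% interval -1.08 to 0.42) at an adjusted p of 0.661 in edgeR. For both genes siCtrl replicate 2 was the lowest of its group and made the groups overlap. A noncoding gene on the same strand covers part of the last exon of NRG1, so its reads are uncertain. Both intervals include 0.

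The receptors did not pass either. EGFR (Entrez 1956; GRCh37 chromosome 7, plus strand, 55086710 to 55279321), the receptor shared by most of these ligands, had 381, 384 and 405 CPM in siCtrl against 331, 338 and 348 CPM under siYAP/TAZ. All siYAP/TAZ libraries were lower, and the spread within groups was small, with means of 390 ± 13.2 and 339 ± 8.13 CPM (SD, n = 3), or 87.0% of control. The log2 fold change was -0.20 (SE 0.12, 95% interval -0.47 to 0.07) at an adjusted p of 0.419 in edgeR and 0.259 with the replicate block. EGFR-AS1, a noncoding gene on the opposite strand inside EGFR, does not overlap its last exon and had 12 to 37 counts per library.

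ERBB2 (Entrez 2064; GRCh37 chromosome 17, plus strand, 37844167 to 37886679) had 20, 33 and 36 counts in siCtrl against 27, 37 and 13 under siYAP/TAZ. Its log2 fold change of -0.22 (95% interval -1.20 to 0.76, adjusted p of 0.836 in edgeR) turned to 0.12 without siYAP/TAZ replicate 3. MIEN1 overlaps the last exon of ERBB2 on the opposite strand and had 34 to 94 counts per library, and since use of strand in counting is not stated, reads of ERBB2 are uncertain.

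ERBB3 (Entrez 2065; GRCh37 chromosome 12, plus strand, 56470583 to 56497289), the main neuregulin receptor of epithelia, had 3.16, 15.4 and 7.29 CPM in siCtrl against 9.75, 15.5 and 14.4 CPM under siYAP/TAZ. The value of siCtrl replicate 2 was at the level of the siYAP/TAZ libraries. The log2 fold change was 0.62 (SE 0.46, 95% interval -0.42 to 1.66) at an adjusted p of 0.531 in edgeR, and without siCtrl replicate 2 it was 1.30 with 0.0514. The annotation places a second gene on the same strand over the last exon of ERBB3, so its reads are also uncertain.

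**Figure D2:**
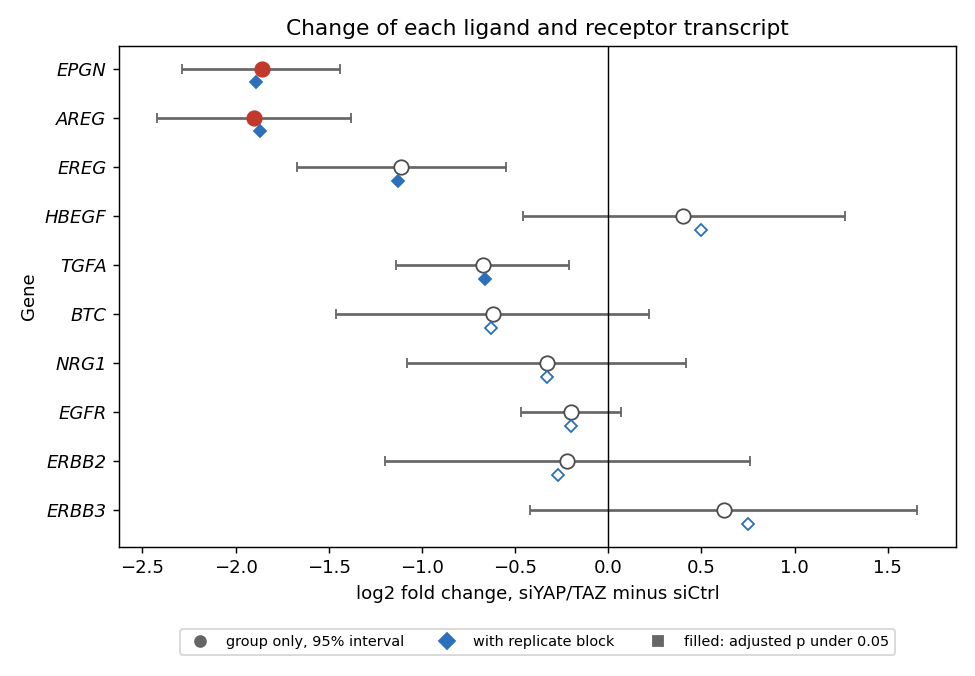
Log2 fold change of each member, siYAP/TAZ minus siCtrl, with all 6 libraries; circles with 95% intervals are from the fit with group only, diamonds from the fit with the replicate block, and filled symbols have an adjusted p under 0.05. EPGN (-1.86) and AREG (-1.90) are filled in both fits, and EREG (-1.11) and TGFA (-0.67) with the block.

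These libraries read the 3′ end of each transcript, so read number depends little on transcript length, and CPM was compared between genes without dividing by length. In siCtrl the order of mean levels was AREG, EGFR, EPGN, TGFA, EREG and HBEGF, followed by NRG1, BTC, ERBB3 and ERBB2, all between 8.32 and 9.83 CPM. TGFA (97.8 ± 26.8) and EREG (88.6 ± 22.5) did not differ beyond their spread, nor did HBEGF (17.1 ± 11.3) and the last 4. In siYAP/TAZ the order was EGFR, AREG, TGFA, EREG, EPGN and HBEGF, followed by ERBB3, NRG1, ERBB2 and BTC. There EREG (40.9 ± 13.2) did not differ beyond the spread from TGFA (61.3 ± 9.09) or EPGN (39.3 ± 10.6). Nor did NRG1 (7.79 ± 1.79), ERBB2 (7.30 ± 4.47) and BTC (5.93 ± 1.83) from each other, or ERBB2 from ERBB3 (13.2 ± 3.07). AREG thus had the highest level of the members in siCtrl and the second highest in siYAP/TAZ, with the limit set by its copy.

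The 7 ligands were also summed as a description of the ligand transcripts available in each library. The sum was 1674, 975 and 1397 CPM in siCtrl against 495, 390 and 436 CPM under siYAP/TAZ. Its means were 1349 ± 352 and 440 ± 52.5 CPM (SD, n = 3), which is 32.6% of control. AREG made up 73.2%, 68.6% and 75.4% of the sum in siCtrl and 56.3%, 55.7% and 66.9% in siYAP/TAZ. TGFA went from a share of 6.4% to 7.8% in siCtrl to 11.7% to 16.9% in siYAP/TAZ, and HBEGF from 0.7% to 1.8% to 4.4% to 5.9%. Without AREG the sum of the other 6 ligands was 366 ± 73.8 CPM in siCtrl and 178 ± 36.3 CPM in siYAP/TAZ, which is 48.5% of control.

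**Figure D3:**
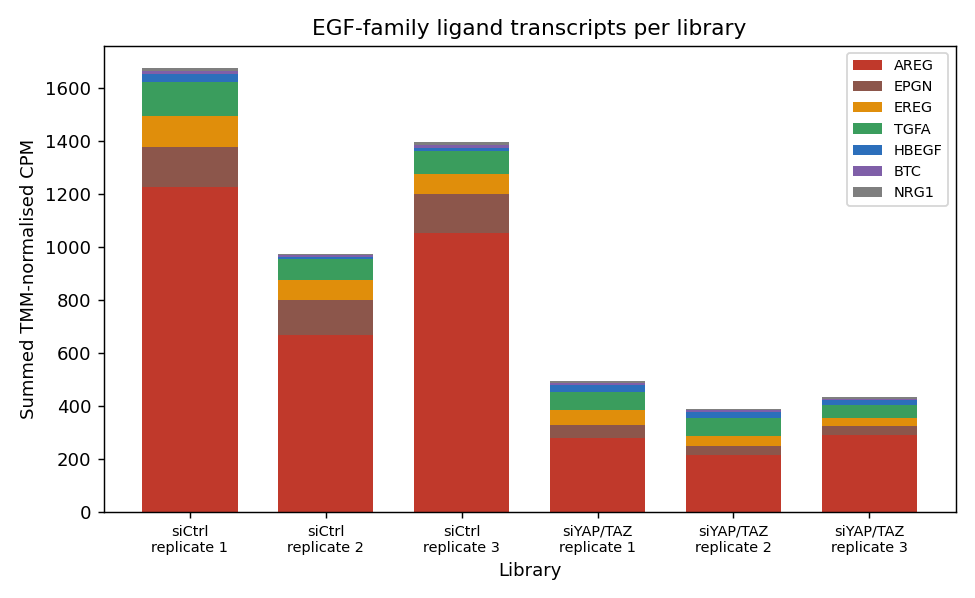
TMM-normalised CPM of the 7 ligands, stacked, in each of the 6 libraries; bars start at 0 and colours name the ligand. The siCtrl sums are 975 to 1674 CPM and the siYAP/TAZ sums 390 to 495 CPM, and AREG is the largest part of every bar.

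Ratios between members within a library need no scaling between libraries. AREG had 3.22, 1.74 and 2.6 counts per EGFR count in siCtrl against 0.841, 0.642 and 0.84 under siYAP/TAZ, a difference of -1.67 in the mean log2 ratio. The ratio of AREG to HBEGF was 40.6, 61.9 and 102 in siCtrl against 11.1, 9.39 and 15.1 under siYAP/TAZ (log2 difference -2.45), and that of AREG to TGFA was 9.59, 8.77 and 11.8 against 4.14, 3.3 and 5.74 (-1.22). For these 3 ratios the groups did not overlap, with an exact two-sided permutation p of 0.1, the smallest that 3 against 3 libraries allow, and 0.167 after Benjamini-Hochberg adjustment over the 5 ratios compared. The ratio of AREG to EREG overlapped between groups (log2 difference -0.74, exact permutation p of 0.2), although it was lower under siYAP/TAZ in 3 of 3 pairs of the same replicate number. A paired exact test of 3 pairs cannot go below 0.25. That of AREG to EPGN was 8.01, 5.03 and 7.24 in siCtrl against 5.41, 6.26 and 9.17 under siYAP/TAZ (log2 difference 0.03, exact permutation p of 1). The 5 ratios were chosen with the values known.

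**Figure D4:**
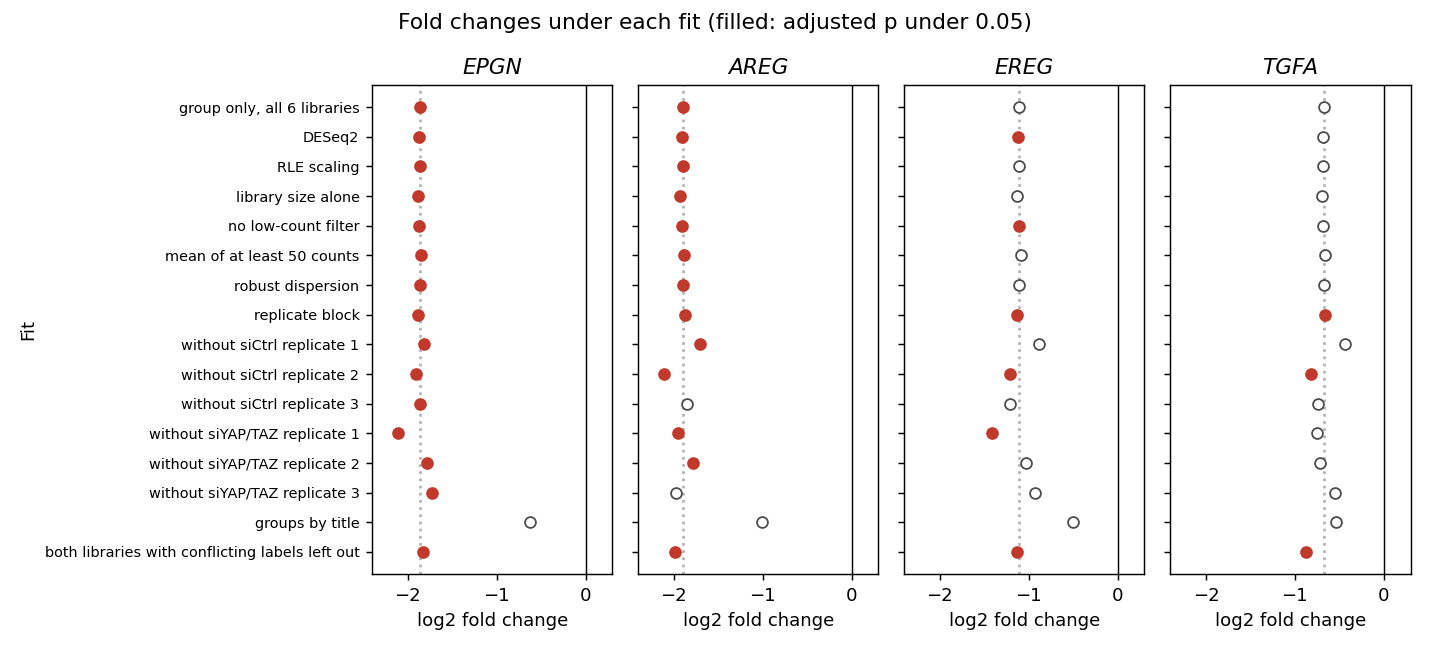
Log2 fold change of EPGN, AREG, EREG and TGFA (horizontal axis) under each fit (vertical axis); filled circles have an adjusted p under 0.05, and the dotted line is the value with group only and all 6 libraries. Every value is below 0, and the groups by title give the value nearest to 0 for EPGN (-0.63), AREG (-1.01) and EREG (-0.50).

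Genes that act with these ligands and receptors were grouped by role, and the lists were written from general knowledge. Across the 5 lists 56 genes were tested, of which 2 were lower and 0 higher in edgeR. Over all genes tested, 1.22% were lower and 0.743% higher. At an unadjusted p under 0.05 there were 14, beside 9.27% of all genes lower and 8.4% higher. With the replicate block 5 were lower and 4 higher, beside 5.44% and 4.66% of all genes. Among the remaining ligands and ERBB4, 4 of 5 genes were tested and 0 passed in edgeR (2 higher at an unadjusted p under 0.05). The median log2 fold change was 0.54 over those 4 genes. NRG2, which encodes neuregulin 2, had 14.1, 17 and 4.77 CPM in siCtrl against 27, 46.3 and 22.8 CPM under siYAP/TAZ. Its log2 fold change was 1.43 (SE 0.42) at an adjusted p of 0.118 in edgeR, 0.00471 with the replicate block and 0.0158 in DESeq2. NRG4 had a log2 fold change of 0.45 (SE 0.18, 0.239 for the adjusted p). EGF itself had only 1 to 6 counts per library and was not tested, and ERBB4 had 6 to 21 counts, with a log2 fold change of 0.62 (adjusted p of 0.436).

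The genes that process and release the ligands had a median log2 fold change of 0.05, and of 13 tested 0 passed in edgeR (2 lower and 1 higher at an unadjusted p under 0.05; 1 passed in DESeq2). FRMD8, a binding partner of the iRhom proteins that bring ADAM17 to the cell surface, had 34.2, 24.7 and 33.2 CPM in siCtrl against 51.2, 48.6 and 64.5 CPM under siYAP/TAZ. Its log2 fold change was 0.83 (SE 0.18), at an adjusted p of 0.0557 in edgeR, 0.00706 with the replicate block and 0.0154 in DESeq2. ADAM8 had a log2 fold change of -1.26 (SE 0.47, 0.212 for the adjusted p) on 3 to 25 counts per library. The sheddases ADAM17 (0.06, 95% interval -0.26 to 0.38, adjusted p of 0.868) and ADAM10 (0.13, -0.23 to 0.50, 0.711), named outside the rule for their role and with values known, did not pass.

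Among 15 genes that restrain or recycle the receptors, 0 passed in edgeR (2 lower and 2 higher at an unadjusted p under 0.05; 1 passed in DESeq2), and the median log2 fold change was 0.05. SH3KBP1, an adaptor that works with CBL in receptor uptake, had a log2 fold change of -0.86 (SE 0.20), at an adjusted p of 0.0592 in edgeR, 0.00195 with the replicate block and 0.00375 in DESeq2. LRIG3, a member of a family of transmembrane regulators of ERBB receptors, had 0.61 (SE 0.19, 0.139 for the adjusted p). ERRFI1, which encodes the EGFR inhibitor MIG6 and is named after its values were seen, had 42.8, 183 and 50.5 CPM in siCtrl against 135, 224 and 236 CPM under siYAP/TAZ. In siCtrl replicate 2 it was within the siYAP/TAZ range. Its log2 fold change was 1.11 (SE 0.49), at an adjusted p of 0.275 in edgeR, 0.486 in DESeq2 and 0.0139 with the replicate block. Without siCtrl replicate 2 the log2 fold change was 2.09, with 0.00096 for the adjusted p.

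The adaptors that couple the receptors to RAS and PI3K had a median log2 fold change of 0.07, and of 15 tested 0 passed in edgeR (1 higher at an unadjusted p under 0.05; 1 passed in DESeq2). GAB2, a docking protein, had 5.74, 10.8 and 4.02 CPM in siCtrl against 15, 15.5 and 18.8 CPM under siYAP/TAZ, a log2 fold change of 1.28 (SE 0.34). Its adjusted p was 0.0958 in edgeR, 0.0259 with the replicate block and 0.033 in DESeq2. NCK1 had 0.40 (SE 0.18, 0.292 for the adjusted p).

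Transcripts commonly used to read out ERK activity had a median log2 fold change of -0.59, beside -0.001 over all genes tested. Of 9 tested, 2 were lower and 0 higher in edgeR, beside 1.22% and 0.743% of all genes. At an unadjusted p under 0.05, 4 were lower and 0 higher, beside 9.27% and 8.4%. EPHA2, an ephrin receptor gene, had 58.3, 27.5 and 37.7 CPM in siCtrl against 15.6, 11.2 and 7.62 CPM under siYAP/TAZ, a log2 fold change of -1.82 (SE 0.33, 0.0294 for the adjusted p in edgeR). PHLDA1 had 146, 87 and 125 CPM in siCtrl against 49.2, 45.9 and 55.8 CPM under siYAP/TAZ, a log2 fold change of -1.25 (SE 0.20, 0.0168 for the adjusted p in edgeR). With the replicate block CCND1 (-0.82, 0.0377) and ETV5 (-0.75, 0.0227) were also lower, where 5.44% of all genes tested were lower. With group only and all 6 libraries neither gene passed. The adjusted p of CCND1 was 0.191 in edgeR and 0.0909 in DESeq2, and that of ETV5 was 0.11 and 0.0908. Of the 9 genes, 8 had a value below 0. Among these, the 95% intervals of SPRY2 (-0.97 to 0.37), SPRY4 (-1.05 to 0.61), ETV4 (-1.25 to 0.45) and DUSP4 (-1.18 to 0.01) included 0. ERK activity itself was not tested. The gene with a value above 0 was DUSP6. This phosphatase gene, whose product acts on ERK, had 149, 143 and 184 CPM in siCtrl against 165, 252 and 198 CPM under siYAP/TAZ (0.37, SE 0.18, adjusted p of 0.319). CCND1, ETV5, SPRY2, SPRY4, ETV4, DUSP4 and DUSP6 are named after their values were seen. Neither EPHA2 nor PHLDA1 passed once replicate 3 of siCtrl, or replicate 2 or 3 of siYAP/TAZ, was left out. Few genes passed in those fits, with 0.0788%, 0.273% and 0.0869% of all genes lower in that order. EPHA2 also did not pass without siCtrl replicate 1, where 0.49% of all genes were lower.

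**Figure D5:**
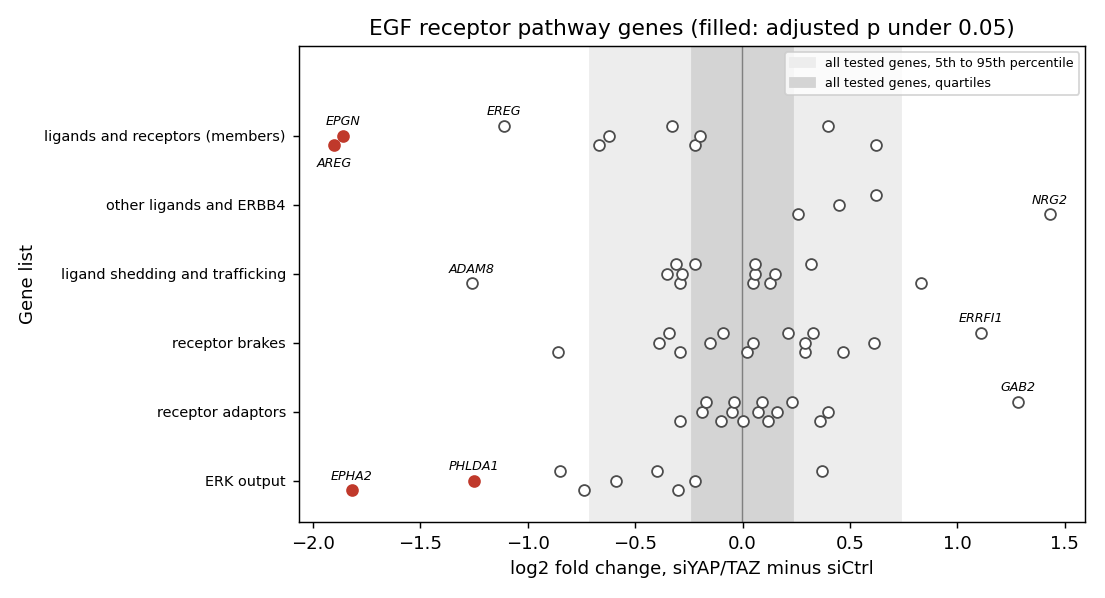
Log2 fold change, siYAP/TAZ minus siCtrl, of every tested gene in the member list and the 5 role lists; filled circles have an adjusted p under 0.05 in edgeR, and grey bands give the quartiles and the 5th to 95th percentile of all 12510 genes tested. The filled genes are AREG, EPGN, EPHA2 and PHLDA1; no gene of the shedding, brake and adaptor lists is filled.

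The genes whose log2 CPM followed AREG most closely over the 6 libraries were ETS1 (Pearson r of 0.997), MRPS30 (0.996), OAZ2 (0.995), BZW1 (0.995) and PHLDA1 (0.995). Their log2 fold changes were -1.20, -0.33, -0.47, -0.73 and -1.25, and ETS1 (adjusted p of 0.0265), BZW1 (0.0333) and PHLDA1 (0.0168) passed in edgeR. Among the members, r with AREG was 0.95 for EPGN, 0.92 for EGFR, 0.89 for EREG and 0.85 for TGFA, and it was -0.73 for ERBB3. These values describe 6 libraries that share the difference between groups, and 178 of the genes tested followed AREG at least as closely as EPGN did.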

How the data were processed

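RNA of MCF10A cells was read with the QuantSeq 3′ mRNA kit in 3 siCtrl and 3 siYAP/TAZ libraries. Raw, unnormalised counts by Entrez gene were deposited in a single table, and all value columns were used. The submitters' processing notes name Cutadapt 4.2, Bowtie2 2.3.5.1 and hg19; the gene annotation and use of strand are not given in the sources used here. Groups and replicate numbers came from the description field. Symbols for 23308 of 23459 IDs came from RefSeq (GRCh38.p14, names and promoter sequences), and positions from GENCODE lifted to GRCh37.

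The main test was quasi-likelihood in edgeR 4.0.16, run in R 4.3.3. Low genes were removed by filterByExpr, libraries were scaled by TMM, the model held group alone, and p-values were adjusted by Benjamini-Hochberg over the 12510 genes kept (99.55% of counts). SE was taken from the log2 fold change and its F statistic. DESeq2 1.42.0, other scalings and filters, robust dispersion, the replicate block, each library left out, groups by title and removal of both libraries with conflicting labels were alternatives. The code was tested on simulated data. All 10 members passed the filter. Likeness to AREG used log2(CPM + 1). From each other list, up to 6 genes past the threshold were named or, where none passed, the 2 with the smallest p, together with EGF, ERBB4 and the 5 genes most like AREG. Whether libraries came from separate cultures is not stated in the labels. The study's methods give 3 biological replicates per condition for RNA sequencing but do not describe this knockdown. The p-values therefore measure the spread between these libraries, which may be technical. Members, lists and alternatives were chosen with earlier results of these data known.

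Replicate numbers, given by the description field, were taken to pair the libraries in the replicate-block alternative only, and the main test and the ratio tests are unpaired. For numbers 1, 2 and 3 the deviations of both libraries from their group means correlated at 0.42, 0.35 and 0.13 across genes, which are not independent. Depth limits the low genes: 3 counts are 0.695 to 0.945 CPM by library total, without TMM scaling, for counting error only.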

Additional observations from a re-analysis of the deposited data

How the results depend on the processing

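In edgeR the count of members lower was 2 with all libraries and 4 with the replicate block. It was 3 without the low-count filter, where 299 of 19181 genes were lower. With both conflicting libraries left out it was 4 (4.64% of all genes were lower there), and with each library left out in turn 1 to 4. By title it was 0, where 1 member was lower at an unadjusted p under 0.05. Among fits with a single library left out, the lowest count came without siCtrl replicate 3 or siYAP/TAZ replicate 3. The count of all genes, 245, was 587 with DESeq2, 556 without the low-count filter, 1263 with the replicate block, 1183 with both conflicting libraries left out, 16 to 1579 with each library left out and 0 by title (464 at an unadjusted p under 0.05). The 2 calls in the role lists became 6, 6, 9, 11, 0 to 12 and 0 in that order; by title 4 genes had an unadjusted p under 0.05, and 10 to 12 did in the leave-one-out fits with 0 calls. The ligand sum, 32.6% of control, was 55% by title and 28.7% to 37.1% with each library left out. The cause of these shifts was not tested. Direction changed for ERBB2 without siYAP/TAZ replicate 3 (0.12; -0.76 to 0.12 with each library left out) and for HBEGF by title (-0.18), and for no other member in any alternative run. The block changed the calls of EREG and TGFA and of no other member. Scalings moved the median of all genes by at most 0.02 on the log2 scale. The requirement of 50 counts on average left 6 members. Summing AREG with AREGB was not run, because the table has no row for the copy. Counting error weighs most on BTC, NRG1, ERBB2 and ERBB3, with 11 to 53 counts per library.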

Other observations

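The neighbours of the chromosome 4 ligand cluster were looked at after the values were seen. Of the genes within 1 Mb of it on either side, 11 besides the members were tested, with a median log2 fold change of -0.18, and 0 passed in edgeR (3 at an unadjusted p under 0.05, and 2 passed in DESeq2). MTHFD2L, a mitochondrial folate enzyme gene next to EPGN, had 344, 302 and 358 CPM in siCtrl against 193, 242 and 167 CPM under siYAP/TAZ, a log2 fold change of -0.74 (SE 0.16) at an adjusted p of 0.0529 in edgeR and 0.00972 with the replicate block. CXCL8, the interleukin 8 gene, had 58, 34.9 and 71.1 CPM in siCtrl against 14.3, 36.7 and 17.1 CPM under siYAP/TAZ (-1.30, adjusted p of 0.106, and 0.0357 with the block). On the other side of the cluster, PARM1 had 9 to 13 counts in siCtrl and 17 to 33 in siYAP/TAZ (1.05, SE 0.39, adjusted p of 0.207), and RCHY1 had 41.7 ± 4.10 and 41.5 ± 3.55 CPM (SD, n = 3; log2 fold change 0.00). The remaining tested neighbours on the EPGN side were CXCL1 (-0.74), CXCL3 (-0.62), CXCL2 (-0.21) and RASSF6 (-0.01). On the other side they were THAP6 (0.44), G3BP2 (-0.18) and USO1 (0.08). Values within the cluster and beside it ranged from -1.90 for AREG to 1.05 for PARM1, a gene with few counts. A cause shared by the region was not tested.

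A second RefSeq start of EGFR, inside the gene at GRCh37 chromosome 7, had matches to the TEAD core (1) and the AP-1 core (2) in the 250 bases before it, and the window before its first start had 0 matches to either. Over all windows searched, 11.9% held a TEAD core and 6.6% an AP-1 core. The ERBB2 window held an AP-1 core match (TGATTCA), 222 to 216 bases before its end. The windows of HBEGF, TGFA and BTC held no match to the motifs searched. EGFR as a whole did not pass the threshold, and reads at the 3′ end cannot tell its starts apart.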
